A study of Mus musculus with 6 samples.

Results

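The cornified envelope genes of the epidermal differentiation complex were followed in ear skin of mice fed on by ticks. They were taken as every chromosome 3 row of the deposited table whose symbol begins with Lce or Sprr, or is Flg2, Hrnr, Rptn, Lor, Ivl, Crct1, Kprp or Tchhl1, which gave 44 of 15667 genes. Flg, which the same rule names, was not analysed here. The study compared adiponectin wild-type mice (WT, Adipo+/+) with their adiponectin-deficient littermates (KO, Adipo-/-), which carry a null Adipoq allele in every cell, in 3 ear libraries each. All mice were female, aged 7 to 8 weeks and of a mixed B6;129 background, and each carried 10 ticks. One punch of the bite site was taken 48 h after tick placement. Every animal had been bitten, so the comparison is between genotypes in bitten skin.

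The cornified envelope is the sheet of cross-linked protein that replaces the plasma membrane of keratinocytes as they die into the outermost layer of the epidermis. Involucrin is laid down first, loricrin makes up most of the sheet, the small proline-rich (Sprr) proteins bridge its components, and the late cornified envelope (Lce) proteins are added near the end. Most of these proteins are encoded side by side in the epidermal differentiation complex, and several Sprr and Lce3 genes are little used in resting skin and are induced when the epidermis is wounded or inflamed.

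The members lay within 1392 kb, chr3:92080271-93471980 in mouse build GRCm38, with 5 other listed genes between them (Prr9, Smcp, 2310050C09Rik, Crnn and Tchh). They made up 14 Lce1 genes, 6 Lce3 genes, Lce6a, 12 Sprr2 genes, Sprr1a, Sprr1b, Sprr4, loricrin (Lor), involucrin (Ivl), Crct1, Kprp and 4 genes of the S100-fused type (Flg2, Hrnr, Rptn and Tchhl1). The Sprr2 genes include Sprr2j-ps, whose symbol marks a pseudogene and which is counted with the members throughout. Several are near copies of each other. Of the 50-base windows in the GENCODE M21 transcripts of Sprr2a1, 96.3% also occurred in another member, against 61.1% for Sprr2a3, 35.7% for Lce3c and 17.8% for Lce1g, and none for Lor, Lce6a, Sprr2h or Sprr1b. Sprr2a1 and Sprr2a2 were listed with one shared interval (chr3:92215835-92257304) and 6 identical values, so they are 1 measurement under 2 names, and reads could have been divided between any of the Sprr2a copies.

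The upstream sequences of the Sprr2 genes are shown first because the Sprr2a genes and the other Sprr2 genes gave different values. Each run is the 250 bases before the RefSeq start of the gene in GRCm38.p6, 5′ to 3′, with TGAGTCA or TGACTCA, the motif of AP-1 factors, in capitals.
Sprr2a1, chr3:92215585-92215834, plus strand: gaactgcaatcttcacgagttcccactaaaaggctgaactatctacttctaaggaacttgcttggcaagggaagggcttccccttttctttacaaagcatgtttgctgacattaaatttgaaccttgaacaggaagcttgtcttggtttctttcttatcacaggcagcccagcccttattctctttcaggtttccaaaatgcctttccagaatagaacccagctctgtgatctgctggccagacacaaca
Sprr2a3, chr3:92285054-92285303, plus strand: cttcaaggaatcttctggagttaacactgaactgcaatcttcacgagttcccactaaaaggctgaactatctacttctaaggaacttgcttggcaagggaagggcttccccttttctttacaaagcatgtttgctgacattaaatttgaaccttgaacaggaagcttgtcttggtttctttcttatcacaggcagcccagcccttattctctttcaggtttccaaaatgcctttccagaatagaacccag
Sprr2d, chr3:92338890-92339139, plus strand: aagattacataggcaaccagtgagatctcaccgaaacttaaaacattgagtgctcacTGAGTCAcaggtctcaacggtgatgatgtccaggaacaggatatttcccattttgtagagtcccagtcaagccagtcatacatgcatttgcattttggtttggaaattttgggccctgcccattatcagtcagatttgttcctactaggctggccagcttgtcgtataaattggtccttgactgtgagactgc
Sprr2h, chr3:92385435-92385684, plus strand: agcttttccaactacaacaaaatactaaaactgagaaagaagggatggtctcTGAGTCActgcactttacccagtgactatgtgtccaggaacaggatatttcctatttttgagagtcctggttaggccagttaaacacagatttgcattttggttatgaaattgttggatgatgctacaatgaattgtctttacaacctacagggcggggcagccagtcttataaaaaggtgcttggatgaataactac
Lce6a and Lce1g, the Lce genes with the smallest unadjusted p, are shown for comparison.
Lce6a, chr3:92621661-92621910, minus strand: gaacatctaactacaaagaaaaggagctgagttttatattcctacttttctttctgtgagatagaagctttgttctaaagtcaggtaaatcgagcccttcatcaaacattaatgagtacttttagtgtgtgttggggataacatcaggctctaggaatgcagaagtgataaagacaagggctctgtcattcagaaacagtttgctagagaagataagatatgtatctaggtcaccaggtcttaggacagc
Lce1g, chr3:92752339-92752588, minus strand: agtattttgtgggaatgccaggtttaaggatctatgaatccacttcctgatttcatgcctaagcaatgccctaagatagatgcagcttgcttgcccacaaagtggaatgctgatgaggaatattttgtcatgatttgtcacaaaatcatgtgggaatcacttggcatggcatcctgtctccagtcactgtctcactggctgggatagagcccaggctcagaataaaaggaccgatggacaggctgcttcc

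Promoter windows of 300 bases, from 250 before to 50 after the start, were given for 39 members. The AP-1 letters were present on either strand in 10 of the 39 (25.6%), against 5.20% of all 32851 windows in the RefSeq table. They were in 7 of 10 Sprr2 windows (Sprr2b, Sprr2d, Sprr2e, Sprr2f, Sprr2h, Sprr2i and Sprr2k), where the first match began between 198 and 193 bases before the start in each, and also in those of Lor, Ivl and Sprr1a. None of the 3 Sprr2a, 13 Lce1 or 6 Lce3 windows held them. The Sprr2a1 and Sprr2a2 windows were identical in all 300 bases, and that of Sprr2a3 held 272 of the same bases in 1 run, moved by 28 bases. The annotated starts may not be equivalent, since a run of 18 bases shared by Sprr2a1 and Sprr2b began 5 bases after the first base of Sprr2a1 and 80 bases before the start of Sprr2b. AACCGGTT, the motif of grainyhead-like factors, and TTGCGCAA, the strict C/EBP motif, were in no member window and in 0.146% and 0.183% of all windows. The loose C/EBP letters TTGCNNAA on either strand were in 4 of 39 member windows (10.3%) and 10.8% of all.

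Values are CPM, the count of a gene scaled to a fixed total per library. The libraries implied 3403705 to 6591509 counted reads, so that 3 reads were worth 0.455 to 0.881 CPM. Adipoq checked the labels, at 30.5, 63.7 and 49.6 CPM across WT against 0, 0.561 and 0 CPM across KO. The libraries of a genotype differed widely in hair follicle and wound markers. The 23 hair follicle genes (inner root sheath and hair keratins, Tchh, Padi3 and others) summed to 14.3, 19.3 and 25418 CPM across WT and to 1991, 10038 and 1035 CPM across KO, and 18 of them were listed at 0 in at least 1 library. The 14 listed genes of stressed or wounded keratinocytes (Krt6a, Krt6b, Krt16, S100a8 and others) summed to 12200, 6043 and 1327 CPM across WT and to 5896, 1416 and 3403 CPM across KO. Markers of the suprabasal layer, where the envelope genes are used, were present in every library and summed to 24325 to 33892 CPM across WT and 25900 to 39317 CPM across KO. In whole-tissue RNA, fewer cells of a type and less RNA per cell cannot be told apart.

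Across the 44 members the summed level was 9360, 10819 and 10142 CPM across WT and 13111, 9244 and 13981 CPM across KO, or 0.924% to 1.40% of a library. The KO mean was 1.198 times the WT mean and the groups overlapped, since the KO library 2 was the lowest of all. With the shared measurement of Sprr2a1 and Sprr2a2 counted once, the KO mean was 1.146 times the WT mean (11387 ± 2231 CPM against 9939 ± 759 CPM). Levels passed the filter of a mean of 1 CPM for 42 members, all but Sprr2b (0 to 1.69 CPM) and Sprr2k (0 to 1.06 CPM), and these 42 were tested with limma on log2(CPM + 0.5) within a fit of 14306 genes. The fitted difference was higher in KO for 35 of the 42 (83.3%), beside 43.3% of all genes tested. This sign is that of mean log2 levels and can oppose that of mean CPM, as it did for Sprr1b and Tchhl1. The median log2 fold change was 0.32, beside -0.03 over all genes. That median was 0.19 without KO library 1, without KO library 3 or without WT library 3, 0.59 without KO library 2 and 0.13 with the suprabasal score in the fit. At an unadjusted p below 0.05, 7 members (16.7%) were higher in KO, beside 1.06% of all genes, and 0 were lower, beside 1.82% of all genes. None passed an adjusted p of 0.05 in limma in either direction (smallest adjusted p = 0.998), beside 0.00699% of all genes higher and 0.00699% lower. The members share a locus, a tissue layer and in part their reads, so they are not independent of each other. In 5 members all 3 KO values were above all 3 WT values, beside 2.95% of all genes, and in 0 members they were all below, beside 4.89% of all genes.

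**Figure D1:**
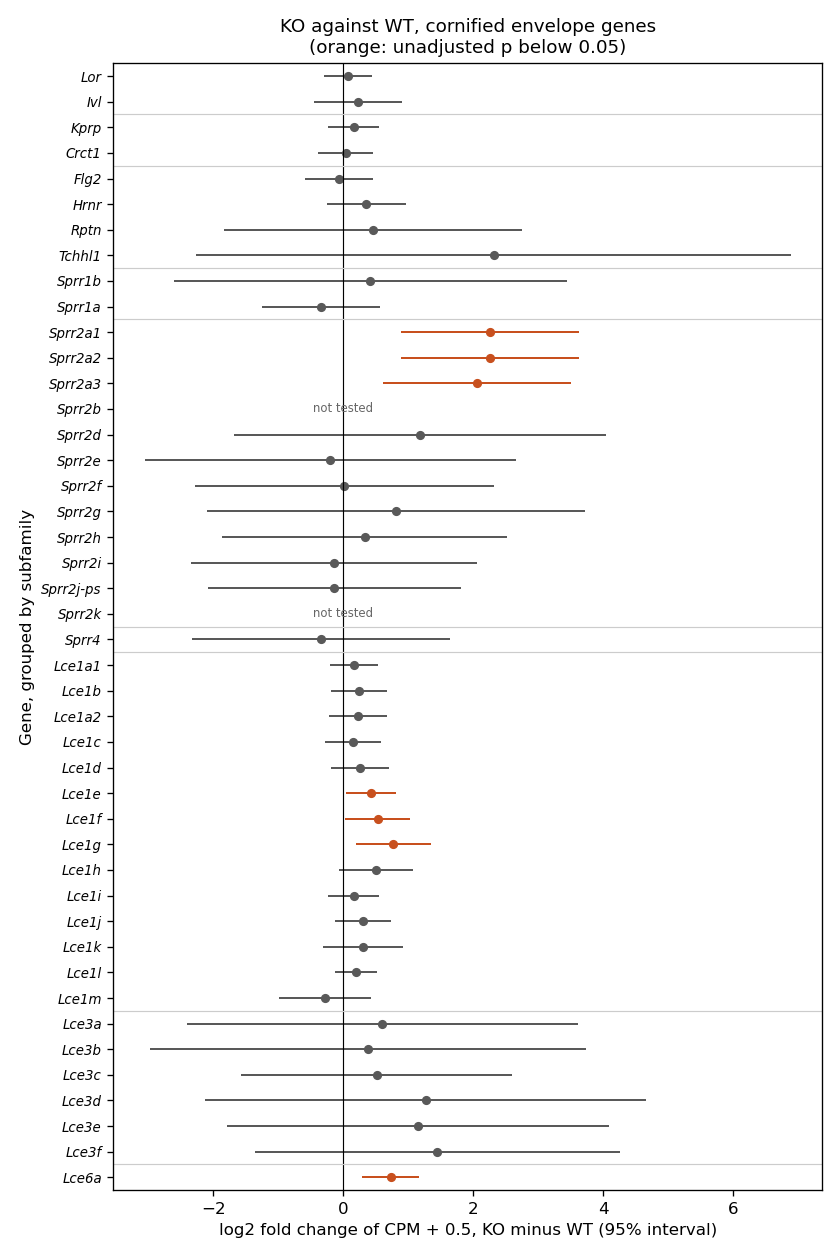
Log2 fold change of CPM + 0.5, KO minus WT, for each member on the x axis with its 95% interval, genes on the y axis grouped by subfamily, orange where the unadjusted limma p was below 0.05. The 7 orange genes are Sprr2a1, Sprr2a2, Sprr2a3, Lce1e, Lce1f, Lce1g and Lce6a, and the intervals of the Lce3 genes, the other Sprr2 genes, Sprr1b and Tchhl1 are far wider than those of the Lce1 genes.

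In the structural core of the envelope no gene passed the test. Loricrin (Lor, chr3:92080271-92083142), its main protein, stood at 1047, 1375 and 1366 CPM across WT and 1257, 1197 and 1529 CPM across KO. The ranges overlapped, with means of 1263 ± 187 (SD) in WT and 1328 ± 177 in KO, and the log2 fold change was 0.08 (95% interval -0.28 to 0.43). Involucrin (Ivl), the early scaffold, was measured at 50.1, 61.2 and 68.4 CPM across WT and 86.6, 42.6 and 92.0 CPM across KO, with the lowest and the highest values both in KO libraries (log2 fold change 0.23, SE 0.29). Kprp, a proline-rich keratinocyte protein, ran from 606 to 794 CPM across WT and from 703 to 987 CPM across KO (log2 fold change 0.16, SE 0.16), and Crct1 from 194 to 319 CPM across WT and 235 to 263 CPM across KO (0.03, SE 0.17). Neither gene separated the groups. Per kilobase of the longest protein-coding transcript, Lor had the highest mean of the members in both genotypes, at 710 CPM per kb in WT and 746 CPM per kb in KO. Sprr1a came next in WT, ahead of Lce1a1 (497 and 429 CPM per kb), and Lce1a1 came next in KO, ahead of Sprr1a (479 and 375 CPM per kb).

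The Sprr2a genes showed the widest separation of the genotypes. Sprr2a1, and Sprr2a2 with it, was measured at 244, 207 and 54.1 CPM across WT and at 963, 369 and 842 CPM across KO. Every KO value lay above every WT value, on 328 to 1016 implied reads in WT and 1317 to 6350 in KO. The means were 168 ± 100 (SD) CPM and 725 ± 314 CPM. The log2 fold change was 2.26 (SE 0.58), with an unadjusted p of 0.00499 and an adjusted p of 0.998 in limma. Sprr2a3 (chr3:92285304-92289264), the near copy of which most transcript windows are shared, stood at 24.9, 20.8 and 5.13 CPM across WT and 98.8, 30.4 and 70.8 CPM across KO. It ordered the libraries as Sprr2a1 did, and the ratio of Sprr2a1 to Sprr2a3 stayed between 9.75 and 12.1 in all 6 libraries. Its log2 fold change was 2.06 (SE 0.62, unadjusted p = 0.0108 and adjusted p = 0.998 in limma). WT library 3 was the lowest of the 6 for all Sprr2a genes, and without it the log2 fold changes were 1.57 for Sprr2a1 and 1.37 for Sprr2a3, with unadjusted p of 0.00169 and 0.0092 in limma.

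Within a genotype, the Sprr2a genes followed the order of the wound marker sums. In WT, Sprr2a1 and the sum of stressed keratinocyte markers were both highest in library 1 and lowest in library 3, and in KO both were highest in library 1 and lowest in library 2. Between genotypes they did not, since WT library 1 had the largest marker sum of all (12200 CPM) and 244 CPM of Sprr2a1, while KO library 2 had a marker sum of 1416 CPM and 369 CPM of Sprr2a1. With the mean log2 level of the tested stressed keratinocyte markers as a covariate, a fit chosen after the values were seen, the log2 fold change was 2.55 for Sprr2a1 (adjusted p = 0.00246 in limma) and 2.37 for Sprr2a3 (adjusted p = 0.0102 in limma). With the hair follicle score as the covariate it was 2.90 (adjusted p = 0.000906 in limma) and 2.71 (adjusted p = 0.0157 in limma), and with the suprabasal score 1.99 and 1.79. Adjusted p for Sprr2a1 ran from 0.000906 to 0.99999 over the 18 alternatives. By the sign of the log2 fit, 10 of the 13 tested stressed keratinocyte markers were themselves lower in KO and 3 higher. All 23 hair follicle markers were higher in KO by that sign, but not in every WT comparison. Their CPM sum was lowest in WT libraries 1 and 2 (14.3 and 19.3) and highest in WT library 3 (25418). The most abundant of them, Tchh, had a lower mean in KO (2439 against 4307 CPM). These covariate scores may therefore not be free of genotype, and each such fit adjusted only 6 libraries.

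The other 9 Sprr2 genes, at 39.1 CPM or less on average in either genotype, did not separate the groups. They summed to 195, 63.7 and 7.75 CPM across WT and 174, 32.2 and 61.1 CPM across KO, so that the highest and the lowest library were both WT. Sprr2h, the most abundant of them, read 82.5, 28.9 and 5.77 CPM across WT and 73.0, 12.3 and 31.7 CPM across KO (log2 fold change 0.33, SE 0.94). Sprr2d gave 47.2, 15.1 and 0.660 CPM across WT and 46.6, 9.81 and 19.98 CPM across KO (1.18, SE 1.23). Over the 7 that were tested, 4 differences were higher and 3 lower in KO, beside 43.3% of all genes higher. Their median was 0.02 and their range -0.20 to 1.18 on the log2 scale. Described after its values were seen, the CPM ratio of Sprr2a3 to Sprr2h was 0.302, 0.718 and 0.890 in WT and 1.35, 2.47 and 2.23 in KO. CPM is not scaled to transcript length, and per kilobase Sprr2a3 was below Sprr2h in all 6 libraries. In KO these levels were 34.3, 10.6 and 24.6 CPM per kb for Sprr2a3 and 97.0, 16.4 and 42.2 CPM per kb for Sprr2h. Sprr2a1 and Sprr2a3 together, with Sprr2a2 left out as the same measurement, had 1.38, 3.57 and 7.64 times the CPM of the other Sprr2 genes in WT and 6.09, 12.4 and 14.9 times in KO, with ranges that overlapped.

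**Figure D2:**
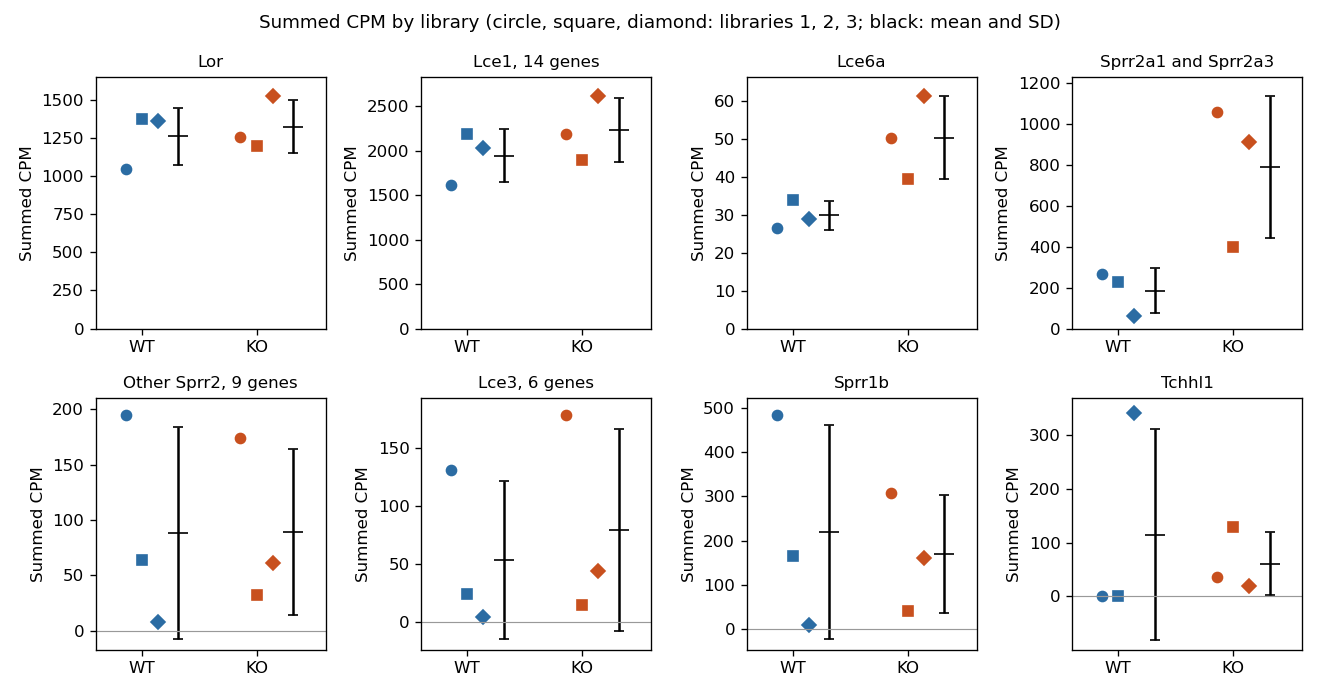
CPM on the y axis of each panel, summed over the genes named above it, for the 3 WT (blue) and 3 KO (orange) libraries, with the mean and SD in black. Sprr2a and Lce6a are the panels in which the 3 KO points lie above the 3 WT points, and the WT points of the other Sprr2 genes and Sprr1b reach both above and below all KO points.

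The Sprr1 genes, which code for bridging proteins of stratified epithelia, varied from library to library in unlike ways. Sprr1b was at 483, 165 and 10.7 CPM across WT and 308, 42.6 and 161 CPM across KO (log2 fold change 0.42, SE 1.30), with both extremes in WT. The mean CPM of Sprr1b was lower in KO (170 against 220), opposite to the sign of the fit. Sprr1a gave 402, 208 and 593 CPM across WT and 414, 286 and 207 CPM across KO (log2 fold change -0.34, SE 0.38). WT library 3 thus held the most Sprr1a and the least Sprr1b. Sprr4 was near the limit of the depth, listed at 0, 0.407 and 4.78 CPM across WT and 0.607, 0.841 and 0.294 CPM across KO, which is 29 reads in WT library 3 and at most 4 reads in any other library.

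Of the late envelope genes, Lce6a (chr3:92620085-92621660) separated the genotypes with the smallest p of all members. Lce6a was measured at 26.6, 34.0 and 29.0 CPM across WT and at 50.2, 39.5 and 61.4 CPM across KO. All 3 KO libraries were above all 3 WT libraries, with means of 50.4 ± 10.95 (SD) and 29.9 ± 3.75 CPM. The log2 fold change was 0.73 (SE 0.19, unadjusted p = 0.00452 and adjusted p = 0.998 in limma). Its ratio to Lor, described after the values were seen, was 0.0212 to 0.0254 in WT and 0.0330 to 0.0402 in KO. Lce6a shares none of its 50-base windows with another member.

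Lce1 genes, which code for envelope proteins of normal skin, varied less between libraries than the Lce3 genes. The 14 Lce1 genes summed to 1616, 2185 and 2036 CPM across WT and 2187, 1894 and 2618 CPM across KO. By the sign of the fit 13 of the 14 were higher in KO, beside 43.3% of all genes, with a median log2 fold change of 0.25. The same 13 genes were all highest in KO library 3. The exception was Lce1m, at the far end of the cluster, which was highest in WT library 3 (179, 350 and 424 CPM across WT, 204, 277 and 261 CPM across KO, log2 fold change -0.28, SE 0.30). Lce1a1, the most abundant by mean CPM, stood at 249.1, 349 and 309 CPM across WT and 337, 292 and 385 CPM across KO (log2 fold change 0.16, SE 0.16).

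The differences at an unadjusted p below 0.05 came from Lce1e, Lce1f and Lce1g, which are neighbours in the locus. Lce1g (chr3:92750151-92752338) was at 85.4, 72.6 and 56.2 CPM across WT and 142, 83.7 and 147 CPM across KO, and KO library 2 fell within the WT range. The log2 fold change of Lce1g was 0.77 (SE 0.24, unadjusted p = 0.0134 in limma). Lce1f read 109, 105 and 80.8 CPM across WT and 151, 104 and 178 CPM across KO (0.53, SE 0.21, unadjusted p = 0.0351 in limma). Lce1e read 69.0, 67.7 and 59.9 CPM across WT and 98.7, 69.5 and 100.2 CPM across KO (0.43, SE 0.16, unadjusted p = 0.0289 in limma), so that KO library 2 lay just above the highest WT value. The next gene, Lce1h, had a log2 fold change of 0.50 with an unadjusted p of 0.0709 in limma. KO libraries 1 and 3 were well above all WT values for these 4 genes and KO library 2 was not. Without KO library 1, or without KO library 3, only Lce6a and the Sprr2a genes were below an unadjusted p of 0.05, and without KO library 2 there were 12 members, among them Lce1d, Lce1h, Lce1j, Hrnr and Ivl.

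**Figure D3:**
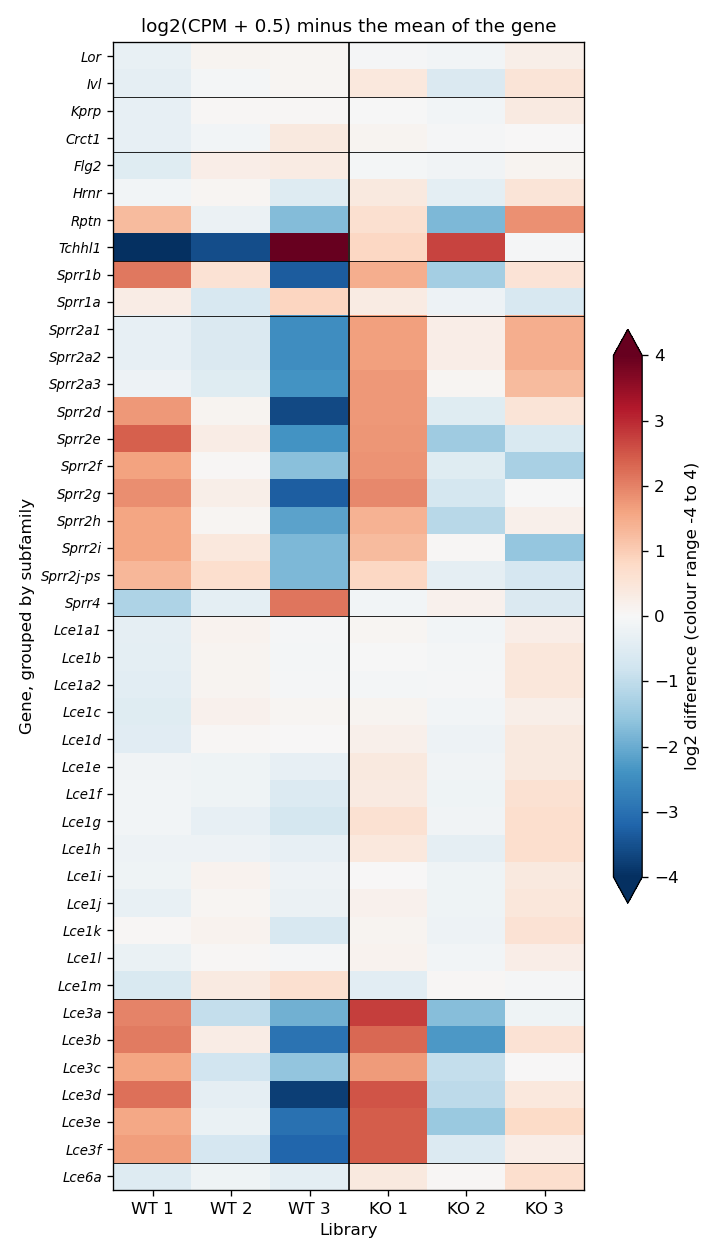
Log2(CPM + 0.5) of each tested member minus its own mean over the 6 libraries, with genes on the y axis by subfamily, libraries on the x axis, red above and blue below that mean. The 3 Sprr2a rows are red in all or nearly all KO columns and blue in all WT columns, whereas the Lce3 and other Sprr2 rows are red in WT 1 and KO 1 and blue in WT 3, and Tchhl1 is blue in WT 1 and WT 2.

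Lce3 genes, which code for envelope proteins made after skin is wounded, were among the most variable members. The 6 genes summed to 132, 24.8 and 4.62 CPM across WT and 179, 15.1 and 44.7 CPM across KO. All 6 were highest in KO library 1 and lowest in WT library 3. Lce3c, the most abundant, stood at 41.5, 7.65 and 4.12 CPM across WT and 44.8, 6.73 and 13.5 CPM across KO (log2 fold change 0.51, SE 0.89), and Lce3f, with the largest difference, at 18.9, 3.31 and 0.165 CPM across WT and 32.1, 3.64 and 6.84 CPM across KO (1.44, SE 1.21). The 6 log2 fold changes ran from 0.38 to 1.44 and none had an unadjusted p below 0.05 in limma (smallest 0.266). Taken with Sprr1b and the other Sprr2 genes, 15 of these 16 genes were lowest in WT library 3, and each was highest in either WT library 1 (7 genes) or KO library 1 (9 genes). Within WT the order of libraries 1, 2, 3 was also that of the stressed keratinocyte sum and of the summed neutrophil markers (647, 229 and 37.6 CPM across WT, 223, 102 and 100.2 CPM across KO). Both sums include S100a8 and S100a9, so they are not independent, and only 8 of the 11 neutrophil genes were listed. The part of other cells in the Lce3 values was not tested.

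**Figure D4:**
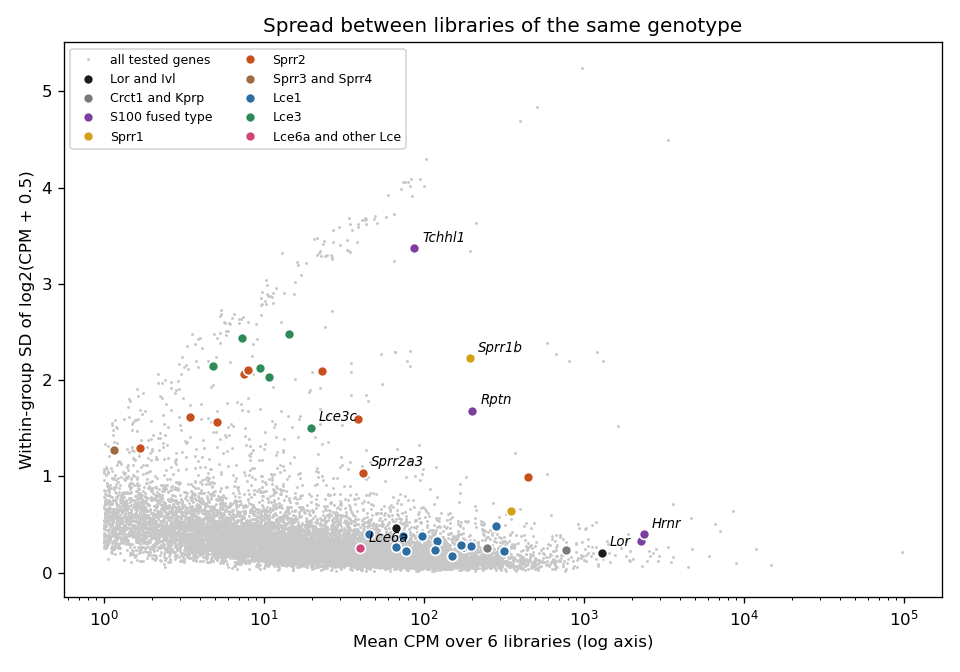
Within-genotype SD of log2(CPM + 0.5) on the y axis against mean CPM over the 6 libraries on a log x axis, for all 14306 tested genes in grey and the members coloured by subfamily. Lce1 genes, Lor and Lce6a sit near the grey mass, while Lce3, most Sprr2 genes, Sprr1b, Rptn and Tchhl1 lie far above it.

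The spread between libraries of the same genotype was unequal among the subfamilies. The median within-genotype SD on the log2 scale was 0.28 for Lce1 genes, 0.21 for Lor and 0.26 for Lce6a, against 2.14 for Lce3 genes, 1.61 for the other Sprr2 genes and 2.23 for Sprr1b. For the Sprr2a genes it was 0.99. Over all genes tested the median was 0.25, and 90% of genes lay below 0.63. Among genes averaging 50 to 500 CPM, as all Lce1 genes but Lce1k did, the median was 0.16 and 90% lay below 0.35. The Lce1 median was thus above that of genes of similar level. Of the 42 members, 85.7% had an SD above the median of all genes. The median SE of the log2 fold change was 1.28 for Lce3 genes and 0.99 for the other Sprr2 genes, so a difference of the size seen in Lce1g was not detectable there with 3 libraries a group.

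The S100-fused proteins include filaggrin, which packs keratin filaments and is released from granules in the last living layer. Filaggrin 2 (Flg2) was at 1614, 2724 and 2803 CPM across WT and 2113, 2053 and 2445 CPM across KO (log2 fold change -0.07, SE 0.22), with all KO values inside the WT range. Hornerin (Hrnr) read 2156, 2405 and 1624 CPM across WT and 3048, 1768 and 3275 CPM across KO (0.36, SE 0.26), and only KO library 2 fell within the WT range. Repetin (Rptn) read 326, 114 and 40.6 CPM across WT and 213, 38.7 and 480 CPM across KO (0.46, SE 0.98), and its lowest and highest values were both in KO. None of these had an unadjusted p below 0.05 in limma.

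Tchhl1, the trichohyalin-like gene at the end of the locus, behaved unlike the other members. Its values were 0.726, 1.22 and 342 CPM across WT and 35.0, 128 and 18.8 CPM across KO. WT library 3 was far above all others and WT libraries 1 and 2 were far below, so the mean was lower in KO (60.7 against 114 CPM) while the fitted log2 fold change was 2.31 (SE 1.97, unadjusted p = 0.275 in limma). Without WT library 3 it was 4.94 with an adjusted p of 0.0459 in limma. Its neighbour Tchh, the structural protein of the inner root sheath, had the same order of the highest libraries (7.99, 7.73 and 12906 CPM across WT, 1005, 5754 and 559 CPM across KO), as did Prr9 and Crnn in the same locus. The hair follicle sums given above were likewise highest in WT library 3 and next in KO library 2. With the hair follicle score added to the fit, the log2 fold change of Tchhl1 was 0.0032 (unadjusted p = 0.987 in limma), and the cause was not tested. The remaining neighbours were 2310050C09Rik (280 to 420.5 CPM across WT and 311 to 433 CPM across KO) and Smcp (1.18 CPM at most), and none of the 4 neighbours that were tested had an unadjusted p below 0.05 in limma.

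**Figure D5:**
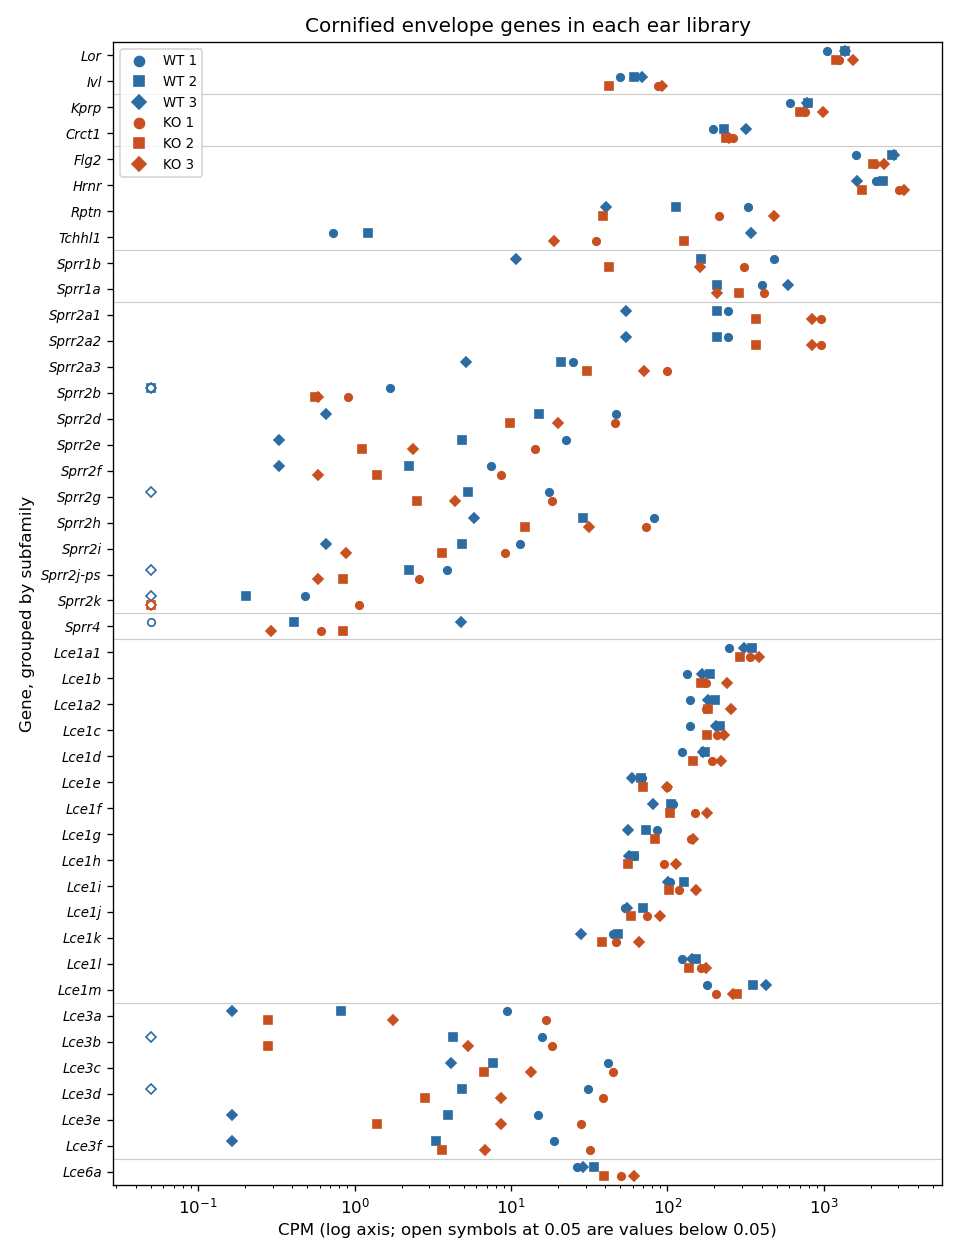
CPM of every member on a log x axis, genes on the y axis by subfamily, WT in blue and KO in orange with a symbol for each library; open symbols mark values below 0.05 CPM. Levels run from below 0.05 CPM for several Sprr2 and Lce3 genes in WT 3 to 3275 CPM for Hrnr in KO 3, and only the Sprr2a genes, Lce6a and Lce1e show all orange points to the right of all blue points.

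Outside the locus, 34 genes that build or process the envelope with these proteins were taken as a list (transglutaminases, envoplakin, periplakin, corneodesmosin, suprabasal keratins, proteases and lipid enzymes). All 34 were tested, 28 were higher in KO by sign, beside 43.3% of all genes, with a median log2 fold change of 0.17, and 2 had an unadjusted p below 0.05 in limma, both higher in KO, beside 1.06% of all genes. These were Asprv1, the protease that processes filaggrin (856, 1007 and 911 CPM across WT, 1438, 977 and 1564 CPM across KO, log2 fold change 0.49, SE 0.18), and Calm4, a calcium-binding protein of differentiated keratinocytes (1819, 1444 and 1110 CPM across WT, 2831, 1592 and 2561 CPM across KO, 0.66, SE 0.25). For both, KO libraries 1 and 3 were above all WT values and KO library 2 was within the WT range, the order seen in Lce1f and Lce1g. Krt10, the most abundant of the list, stood at 10626, 11768 and 8608 CPM across WT and 14502, 10727 and 15152 CPM across KO (0.38, SE 0.22). Tgm1, the transglutaminase that cross-links the envelope, was at 163 to 178 CPM across WT and 149 to 192 CPM across KO. Of 30 transcription factors known to act on terminal differentiation, all were tested, and 13 were higher and 17 lower by sign, close to the 43.3% of all genes that were higher. Their median log2 fold change was -0.01 and none had an unadjusted p below 0.05 in limma. The most abundant of these, Klf4, was at 726, 783 and 755 CPM across WT and 802, 626 and 614 CPM across KO.

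Other marker lists give the setting of these values. Among stressed keratinocyte markers, 2 of 13 tested were lower in KO at an unadjusted p below 0.05 in limma, beside 1.82% of all genes, namely Krt17 (858, 842 and 775 CPM across WT, 499, 497 and 418 CPM across KO) and the EGF receptor ligand Areg (28.6, 6.51 and 4.62 CPM across WT, 3.03, 2.24 and 1.18 CPM across KO). Both genes had all KO values below all WT values, as did 4.89% of all genes, while the Sprr2a genes had them above. Krt6a, the most abundant of the list, was at 4343, 1932 and 351 CPM across WT and 1849, 397 and 940 CPM across KO. Of the 11 basal keratinocyte markers, Lamb3 was lower in KO (132 to 170 CPM across WT, 113 to 123 CPM across KO), and none of the 9 suprabasal markers or the 23 hair follicle markers passed the same threshold.

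Markers of fat and skeletal muscle were lower in KO by the sign of the fit. All 8 adipocyte genes were lower in KO by sign (median log2 fold change -0.87), and 2 of them had an unadjusted p below 0.05 in limma, namely the fatty acid carrier Fabp4 (102, 149 and 166 CPM across WT, 54.9, 128 and 49.9 CPM across KO) and resistin, Retn (8.96, 18.5 and 15.3 CPM across WT, 3.79, 10.1 and 4.41 CPM across KO). All 8 skeletal muscle genes were lower in KO by sign as well (median -0.51), and 2 passed the same threshold, the myosin heavy chain Myh1 (1623, 1725 and 1707 CPM across WT, 1043, 1065 and 1479 CPM across KO) and the light chain Mylpf (154, 215 and 207 CPM across WT, 111, 115 and 183 CPM across KO). Myh1 had all KO values below all WT values, and Fabp4, Retn and Mylpf overlapped between the groups. Over all genes, 1.82% were lower in KO at that p, and 43.3% were higher in KO by sign. Of the 7 fibroblast genes, Col1a1 was higher in KO at that threshold (1035, 1089 and 1411 CPM across WT, 1240, 1861 and 1940 CPM across KO), and none of the sebaceous gland, macrophage, neutrophil or melanocyte genes passed it. The summed CPM ranges of WT and KO overlapped for the adipocyte (492 to 750 and 290 to 757), skeletal muscle (4466 to 5578 and 2680 to 5372), fibroblast (4586 to 5628 and 4644 to 7092), sebaceous gland (572 to 934 and 489 to 748), macrophage (459 to 932 and 438 to 881), neutrophil (37.6 to 647 and 100.2 to 223) and melanocyte lists (3.05 to 88.0 and 4.48 to 6.52). The most abundant gene of a list had mean levels, in WT and then KO, of 6210 and 7120 CPM for Krt14 (basal keratinocyte), 1601 and 2107 CPM for Col3a1 (fibroblast), 175 and 163 CPM for Plin4 (adipocyte), 188 and 185 CPM for Fa2h (sebaceous gland), 224 and 201 CPM for Mrc1 (macrophage), 116 and 41.8 CPM for S100a9 (neutrophil) and 12.3 and 2.46 CPM for Dct (melanocyte). The part of these cells in the values of the envelope genes was not tested. Of the list for oral or esophageal keratinocytes, which would mark another stratified epithelium, only Krt4 was listed, at 0.242 to 1.12 CPM.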

How the data were processed

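RNA from 1 bite-site ear punch per mouse (WT and KO, 3 libraries each) was sequenced by the authors, who trimmed the reads, aligned them with STAR 2.7.3a to mouse build mm10 and quantified Ensembl transcripts in Partek Flow by expectation maximization. The deposited values are CPM per gene, made by the authors by dividing gene counts by the library total and adding 0.0001. Because expectation maximization assigns shared reads by estimate, near copies such as the Sprr2a genes are uncertain. Because the deposited values are scaled and offset, no count test was run. Depths are implied from the step of 1 read, and whole reads explained 91.8% to 92.6% of low values (within 0.1 read). Counting error limits values of a few reads.

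Here log2(CPM + 0.5) of genes averaging 1 CPM or more was fitted with limma 3.58.1 (R 4.3.3, mean-variance trend, two-sided), with Benjamini-Hochberg adjustment over 14306 genes. The step was also run on simulated counts of independent genes with a fixed dispersion. Those lack the shared reads and the wide spread of many members, so that run does not cover them. Fold changes on this scale understate those of low genes. The fit moves the spread of each gene toward that of genes of similar level. For more variable genes, such as Sprr2a1, Sprr2a3 and Lce1g, SE and p thus rest on a smaller spread than was seen. Groups and replicate numbers came from the labels, which do not say whether each library was a separate mouse beyond its title, although the methods describe 3 mice a group. Named in full were Lor, Ivl, Flg2, Hrnr and Rptn, members below an unadjusted p of 0.05, the most abundant and the most different member of each subfamily and, from each list, the genes below that p and the most abundant, with others named after their values were seen. Intervals of fold changes are at 95%. Levels per kilobase used GENCODE M21 transcript lengths, and promoters were RefSeq windows of GRCm38.p6. Alternatives changed the pseudocount, filter, scaling, trend, weights, covariates and libraries used. The members and gene lists were chosen with earlier results of these data known.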

Additional observations from a re-analysis of the deposited data

How the results depend on the processing

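Sprr2a1, Sprr2a2, Sprr2a3 and Lce6a were higher in KO at an unadjusted p below 0.05 in all 18 alternative fits, Lce1g in 16, and Lce1e and Lce1f in 12 each. The 7 members higher in KO at that threshold became 17 with the hair follicle covariate and 15 with the stressed keratinocyte covariate (the last chosen after seeing the data), beside 2.11% and 2.21% of all genes. With the suprabasal covariate or without the trend, only Lce1g, Lce6a and the Sprr2a genes remained, beside 0.818% and 1.31% of all genes. When 1 library was left out they numbered 4 to 12 (4 without KO library 1 or 3, 12 without KO library 2), beside 0.949%, 0.622% and 1.43% of all genes for these 3 omissions. Members lower in KO numbered 0, but 1 with either the hair follicle or the stressed keratinocyte covariate and 0 to 2 when 1 library was left out (2 without WT library 1, Flg2 and Lce1m). Members past an adjusted p of 0.05 in limma numbered 0, but 3 with the hair follicle covariate (the Sprr2a genes), 4 with the stressed keratinocyte covariate (those and Sprr2d) and 0 to 1 when 1 library was left out (Tchhl1 without WT library 3). Members with all KO values above all WT values ranged from 5 to 13 (13 without KO library 2) and those below from 0 to 2 (2 without WT library 1) over the same omissions. The cause was not tested. The sign changed for Lor (-0.0316 with the suprabasal covariate, -0.0539 to 0.146 with 1 library left out), Rptn (-0.0459 with the suprabasal covariate, -0.33 to 1.47) and Sprr4 (0.0269 at a pseudocount of 0.1), and on leaving out 1 library for Sprr1b (-1.13 to 1.58), Sprr1a (-0.747 to 0.00801), Lce3c (-0.21 to 1.44) and Flg2 (-0.331 to 0.0674), none of them below an unadjusted p of 0.05 in limma in the reported fit. Among all genes below that p, 36.9% were higher in KO as deposited, 49.3% after scaling by the median of ratios and 54.6% after quantile normalization, and all 7 members kept their call under both scalings. Counting Sprr2a1 and Sprr2a2 once left 6 members. Deviations from the group mean correlated at 0.38, -0.31 and -0.22 between the WT and KO libraries of replicates 1, 2 and 3. With 3 libraries a group and no reference for such values, these cannot decide whether libraries were paired. With the replicate number as a block 7 members were higher and 0 lower.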
